A study of Mus musculus with 840 samples.

Results

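The luminal keratins are described here as 4 genes, *Krt7*, *Krt8*, *Krt18* and *Krt19*, chosen by symbol from the 39154 genes of the count tables. All 4 were found and all passed the filter on low counts. The cells came from mammary glands of mice that carry a conditional, constitutively active Notch1 intracellular domain linked to nuclear GFP (N1ICD), together with SMACreERT2 or K5CreERT2. The smooth muscle actin and keratin 5 promoters restrict Cre to basal cells, and tamoxifen was given at postnatal day 21. GFP- cells came from the same mice, so they share both alleles and the tamoxifen, and differ in that no reporter was seen. Single cells were index-sorted by EpCAM and CD49f into basal, intermediate and luminal gates, GFP+ or GFP-, after a chase of 1, 3, 4 or 6 weeks (SMACreERT2) or 3 weeks (K5CreERT2), and sequenced with Smart-seq2.

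Of 744 cells on 8 plates in 3 sequencing batches, 68.7% passed quality control. They were 17 basal GFP-, 100 basal GFP+, 12 intermediate GFP-, 39 luminal GFP- and 120 luminal GFP+ cells, and the rest (43.6% of the kept cells) were intermediate GFP+ cells, with 63, 61, 60, 19, 13, 4 and 3 of them on 7 plates. The loss was uneven. SMACreERT2 3-week plate 1 kept 7 of 96 cells and the 6-week plate 44 of 96. The K5CreERT2 plates kept 92 and 89 of 96. Of luminal GFP+ cells, 3-week plates 1 and 2 kept 2 of 44 and 11 of 26, and the 6-week plate 37 of 84. For the same group the 1-week and 4-week plates kept 8 of 11 and 51 of 52, and the K5CreERT2 plates most. Of GFP- cells, 17 of 18 basal, 12 of 12 intermediate and 39 of 54 luminal cells were kept. A kept cell held 103081 to 3363298 reads on genes, with a median of 402767 in batch 1, 397250.5 in batch 2 and 1499629.5 in batch 3. Groups were compared within plates, so that p-values measure how far the differences between groups varied from plate to plate. In the edgeR fit this spread was estimated over all gate and GFP groups together. Each plate held cells of its own 1 or 2 mice. The plate was therefore the replicate, and levels are CPM, that is counts scaled to the same total in every sum, of the reads summed over at least 3 cells of a group on a plate. In such a sum, more cells with a transcript and more transcript per cell cannot be told apart, and cells are therefore counted separately below. For 1 of the K5CreERT2 plates, called plate 2 here, the sample names in the deposited annotation give 6 weeks and its description gives 3 weeks, and 3 weeks was used. On 4 SMACreERT2 plates the study's own table of sorted cells lists the intermediate and luminal GFP+ cells the other way round from the labels, which were used here. On 3 of these plates both groups could be measured. There the 10 basal markers summed to 1308, 354 and 1932 CPM in the group labelled luminal and to 3120, 14711 and 16603 CPM in the group labelled intermediate (1 week, 3-week plate 2 and 4 weeks).

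Keratins are the intermediate filament proteins of epithelia and assemble only as pairs of a type I with a type II chain. *Krt8* and *Krt7* encode type II chains and *Krt18* and *Krt19* type I chains. K8 with K18 is the primary pair of simple epithelia, K19 is the small type I chain that lacks most of the tail domain, and K7 accompanies them in ducts and glands. In the mammary gland these 4 mark luminal cells, whereas K5 with K14 marks basal cells.

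In the GRCm38 build, *Krt8* (ENSMUSG00000049382) lies on chr15:101996698-102004482, minus strand, and *Krt18* (ENSMUSG00000023043) on chr15:102028180-102032027, plus strand. The 2 genes are 23697 bases apart. *Krt18* is the only type I gene of the 4 on this chromosome. *Krt7* (ENSMUSG00000023039) lies on chr15:101411043-101430313, plus strand, and *Krt19* (ENSMUSG00000020911) on chr11:100140810-100148665, minus strand. The promoters of *Krt7*, *Krt8* and *Krt18* are shown so that the 3 members on this chromosome can be set side by side. They are from RefSeq, build GRCm38.p6, strand of the gene, as bases of the 250 before the start that no exon of a protein-coding GENCODE transcript covers, and capitals mark the GC box GGGCGG on either strand:
Krt7, chr15:101412153-101412401: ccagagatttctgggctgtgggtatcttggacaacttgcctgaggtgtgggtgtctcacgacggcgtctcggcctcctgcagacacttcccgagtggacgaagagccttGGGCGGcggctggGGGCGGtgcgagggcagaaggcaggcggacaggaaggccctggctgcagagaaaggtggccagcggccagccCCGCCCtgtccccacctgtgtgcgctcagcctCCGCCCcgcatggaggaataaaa
Krt8, chr15:102004483-102004592: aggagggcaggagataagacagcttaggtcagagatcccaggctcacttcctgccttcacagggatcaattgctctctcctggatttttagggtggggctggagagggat
Krt18, chr15:102027966-102028179: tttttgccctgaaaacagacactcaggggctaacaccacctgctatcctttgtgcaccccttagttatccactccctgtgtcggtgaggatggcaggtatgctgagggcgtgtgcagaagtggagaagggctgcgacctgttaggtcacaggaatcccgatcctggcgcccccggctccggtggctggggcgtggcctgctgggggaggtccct

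The gene intervals above are those of GENCODE, whose *Krt7* interval begins upstream of the RefSeq start, so that the *Krt7* window lies inside it. The window of *Krt7* held 4 GC boxes, the window of *Krt8* none and that of *Krt18* none. GGGCGG occurs in 32.7% of 32851 RefSeq promoter windows of 250 bases. TGGGAA, the core of the site for the Notch partner RBPJ, was searched on both strands as well. It was found 1 time, in the *Krt8* window among the exonic bases left out above, and it occurs in 21.6% of all windows. TATAAA (12.4% of windows) and the AP-1 site TGANTCA (6.75%) had no match in the 3 windows. The promoter of *Krt19* is not shown.

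The first comparison asks how the level of the luminal keratins differs between the gates among GFP+ cells, in which Notch was activated. In luminal GFP+ cells *Krt18* and *Krt8* were 17.3-fold and 8.84-fold higher than in basal GFP+ cells, and both rises passed the test. *Krt19* and *Krt7* had fitted folds of 18.1 and 10.8 that did not pass it. Between intermediate and basal GFP+ cells none of the 4 passed, with fitted folds of 1.26 to 2.50, and *Krt8* and *Krt18* were 7.01-fold and 8.10-fold higher in luminal than in intermediate GFP+ cells.

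*Krt18*, the type I partner of *Krt8*, was the most abundant of the 4 per length. In basal GFP+ cells it stood at 69.7, 130, 230.8, 314 and 369 CPM on the 5 plates. In intermediate GFP+ cells its lowest, median and highest plates had 240, 419 and 995 CPM (7 plates). In luminal GFP+ cells the lowest, median and highest were 1665, 4521 and 6370 CPM (6 plates), so that every luminal plate lay above every basal and intermediate plate. The fitted log2 fold change against basal GFP+ cells was 4.11 ± 0.67 (SE, 5 plates with both groups, edgeR's quasi-likelihood test, Benjamini-Hochberg adjusted p = 0.00303). Within single plates it ran from 2.58 at 1 week of chase to 6.12 on K5CreERT2 plate 2. The 1-week basal sum also held 394.9 CPM of endothelial markers. The 1-week luminal sum, of 8 cells, held the salivary markers described further below. The basal sum of K5CreERT2 plate 2, of 6 cells, held 1.12 CPM of the basal keratin *Krt5* and 5746 CPM of the lipid gene *Scd1*. The part of these in the values of both plates was not tested.

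*Krt8*, the type II partner, was measured at 144.4, 144.6, 249.2, 277.4 and 386 CPM in the 5 sums of basal GFP+ cells. Intermediate GFP+ cells had 115.5, 318 and 629 CPM on their lowest, median and highest plates, and luminal GFP+ cells 1247, 2014 and 3767 CPM. Luminal plates again lay above all others, while basal and intermediate plates overlapped. The log2 fold change of luminal against basal GFP+ cells was 3.14 ± 0.52 (SE, 5 plates, edgeR's quasi-likelihood test, Benjamini-Hochberg adjusted p = 0.00327). Reads of *Krt8* could be shared with its processed pseudogene on chromosome 7, and how such reads were counted was not tested.

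*Krt19* was found at 2.34, 64.4, 96.1, 97.9 and 187.9 CPM in basal GFP+ cells. The lowest, median and highest plates were at 2.31, 200 and 415 CPM in intermediate GFP+ cells and at 984, 1505 and 2231 CPM in luminal GFP+ cells. Every luminal plate lay above the others here too, and the basal and intermediate plates overlapped. The log2 fold change against basal GFP+ cells was 4.18 ± 1.03 (SE) and missed the threshold (edgeR's quasi-likelihood test, Benjamini-Hochberg adjusted p = 0.0544). Without K5CreERT2 plate 2, which holds the lowest basal value, it was 3.65 with an adjusted p of 0.00146, and without K5CreERT2 plate 1 it was 4.23 with an adjusted p of 0.0282.

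*Krt7* was the scarcest and the most variable. Basal GFP+ cells had 0, 7.33, 36.2, 53.8 and 91.3 CPM. Intermediate GFP+ cells had 6.87, 89.5 and 236.4 CPM and luminal GFP+ cells 142.7, 377.5 and 928 CPM on their lowest, median and highest plates. These 2 groups overlapped, since the intermediate plates at 3 weeks (plate 1) and 4 weeks, of which the second reached 236.4 CPM, lay above the 6-week luminal plate. On the first of these 1 of 3 cells gave 100% of the *Krt7* reads, and on the second 1 of 19 cells gave 60.6%. The log2 fold change against basal GFP+ cells was 3.44 ± 1.26 (SE, edgeR's quasi-likelihood test, Benjamini-Hochberg adjusted p = 0.265).

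**Figure D1:**
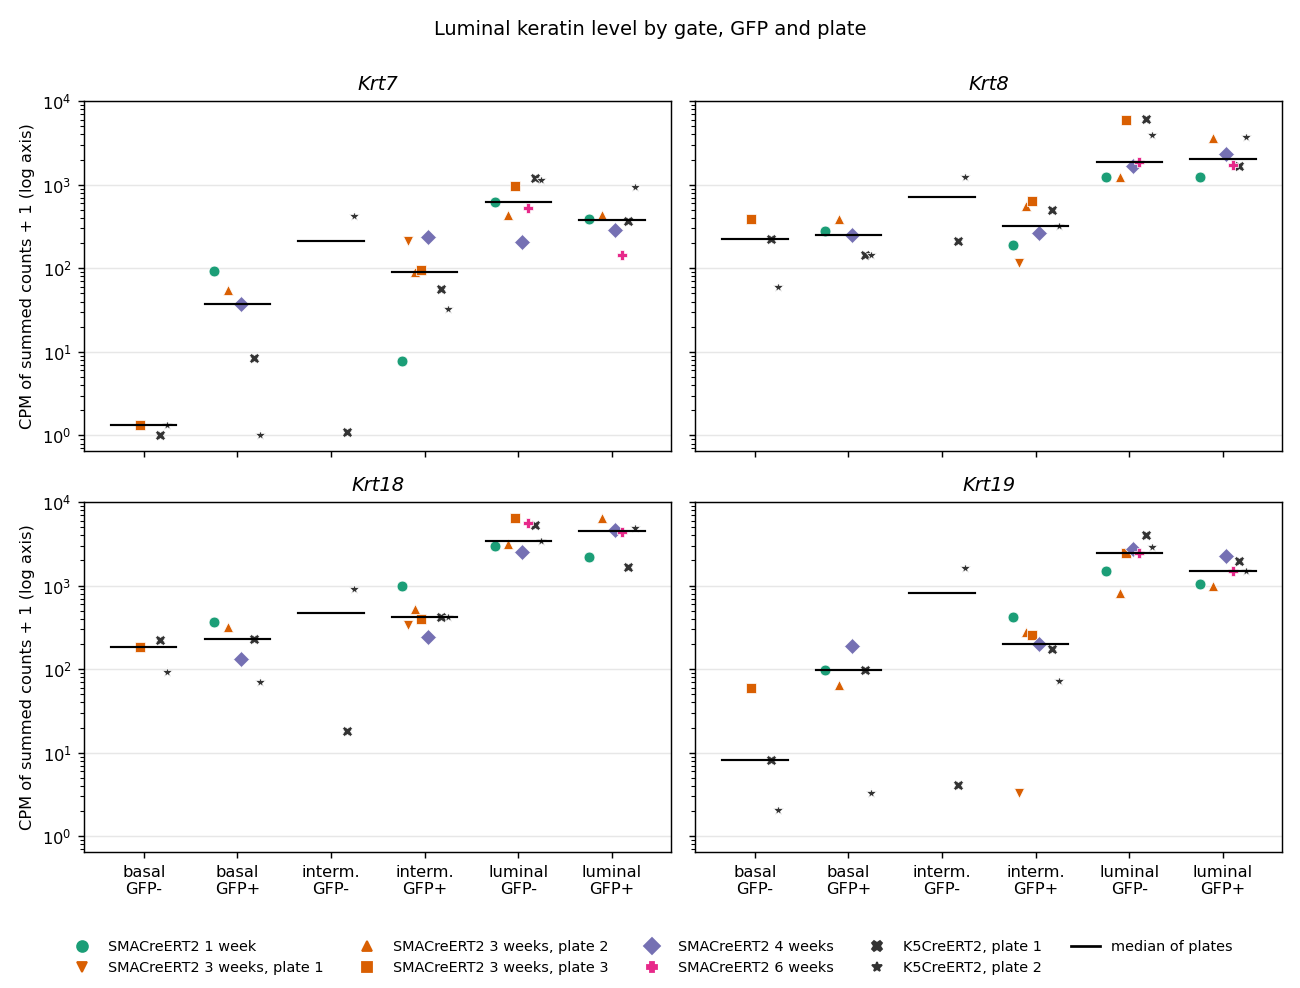
Level of each luminal keratin (CPM of summed counts + 1, log axis) by gate and GFP; each symbol is 1 plate with at least 3 cells, coloured by Cre line and chase, and the bar is the median of plates. The luminal GFP+ plates of Krt8, Krt18 and Krt19 lie above all basal and intermediate GFP+ plates, whereas those of Krt7 (142.7 to 928 CPM) overlap the intermediate ones.

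In the comparison of luminal with basal GFP+ cells 2 of the 4 luminal keratins passed, both higher, against 0.334% of the 19768 genes tested that passed as higher (0.759% in either direction). *Krt18* and *Krt8* ranked 16 and 19 by p. In the comparison of luminal with intermediate GFP+ cells the same 2 passed, at log2 fold changes of 3.02 ± 0.60 and 2.81 ± 0.48 (SE, adjusted p = 0.036 and 0.0136 by edgeR's quasi-likelihood test), against 0.0455% of genes that passed as higher (0.157% in either direction). *Krt19* was at 2.85 ± 0.92 and *Krt7* at 2.40 ± 1.14 on the log2 scale (adjusted p = 0.284 and 0.554 by the same test). The call of *Krt18* was lost without 3-week plate 2 (adjusted p = 0.204), 4 weeks (0.182), 3-week plate 3 (0.085) or 6 weeks (0.0562), and that of *Krt8* without 4 weeks (0.0511). Under the exchange of both groups on the 4 plates named above, these differences became -0.43 for *Krt18* and -0.29 for *Krt8*, neither passing, and the fold changes of *Krt18* and *Krt8* against basal cells fell to 2.83 and 2.08 and no longer passed.

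Between intermediate and basal GFP+ cells none of the 4 passed. The log2 differences were 0.33 (95% CI -0.60 to 1.26) for *Krt8*, 1.10 (-0.04 to 2.24) for *Krt18*, 1.32 (-0.46 to 3.11) for *Krt19* and 1.04 (-1.36 to 3.44) for *Krt7*. In this comparison edgeR's quasi-likelihood test called 0 of 19768 genes (0%), 619 genes had an unadjusted p under 0.05, and DESeq2 called 423, with none of the 4 keratins among them. *Krt18* and *Krt19* were higher in the intermediate than in the basal gate on 5 of 5 plates, and *Krt8* and *Krt7* on 4 of 5, the exception being 1 week, with 190 against 277.4 CPM of *Krt8* and 6.87 against 91.3 CPM of *Krt7*. Single cells carried part of these sums: 1 of the 4 intermediate cells at 1 week gave 99.8% of the *Krt19* and 1 gave 82.2% of the *Krt18* reads, and 1 of 13 on 3-week plate 2 gave 89.2% of the *Krt19* reads. At 1 week the endothelial markers summed to 818 CPM in the intermediate and 394.9 CPM in the basal gate. The HRpos markers there came to 3368 and 211.4 CPM. Their part in the keratin values was not tested. Per cell, as a mean of log2(CPM + 1), *Krt19* was higher in the intermediate gate on 3 of 5 plates, with a mean difference of -0.35 (exact permutation p = 0.938). In batches 1 and 2 alone the difference of *Krt8* was -0.011 and in batch 3 alone 1.41, neither passing. The size of these differences also depends on the labels. Under the exchange given above, the fitted *Krt18* and *Krt8* were higher in the intermediate than in the luminal group, and higher in the luminal than in the basal group.

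**Figure D2:**
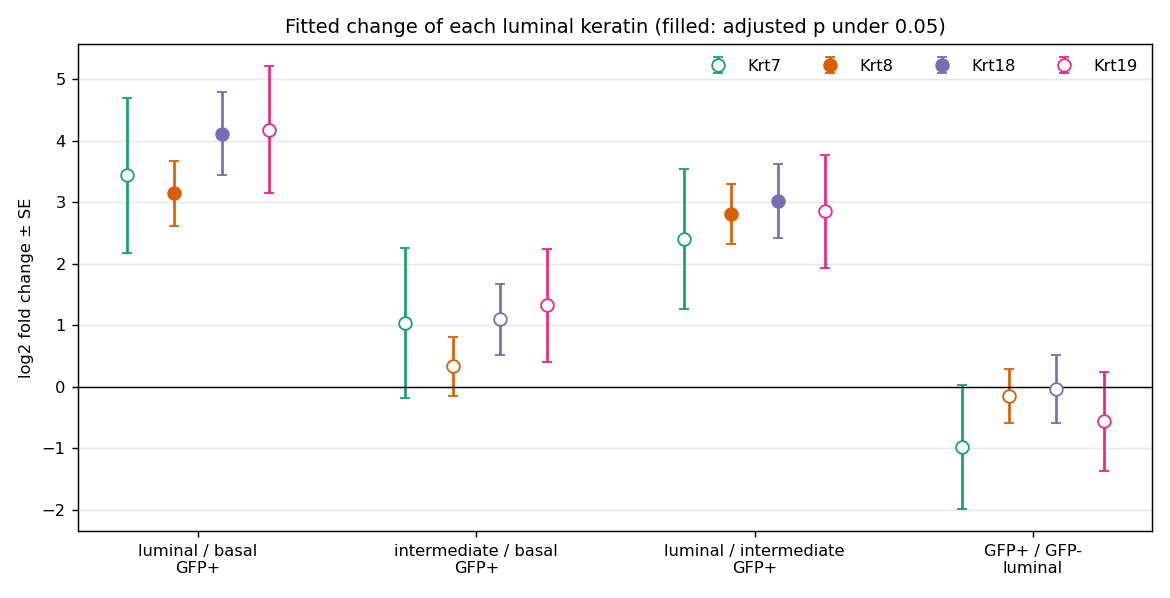
Fitted log2 fold change of each luminal keratin in the 4 comparisons, with the standard error derived from edgeR's quasi-likelihood F statistic as bars. Filled symbols have an adjusted p under 0.05. Krt8 and Krt18 are filled in the comparisons of luminal with basal and with intermediate GFP+ cells and nowhere else.

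Set per kilobase of transcript, which allows genes to be compared, the level in luminal GFP+ cells was 2807 ± 1232 CPM per kb for *Krt18*, 1223 ± 546 for *Krt8*, 978 ± 312 for *Krt19* and 103.4 ± 65.3 for *Krt7* (SD, n = 6 plates). *Krt8* and *Krt19* differed by less than their spread. In basal GFP+ cells the order was *Krt18* at 154.98 ± 86.4, *Krt8* at 122.8 ± 51.8, *Krt19* at 56.9 ± 42.6 and *Krt7* at 9.21 ± 9.04 CPM per kb (SD, n = 5 plates). *Krt18* and *Krt8* were thus not separated there. The order of the 4 means was the same in the basal and luminal GFP+ cells.

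The second comparison sets the GFP+ cells of the luminal gate, in which N1ICD was switched on, beside the GFP- luminal cells of the same plates. None of the 4 keratins passed the test, and all 4 fitted differences were below 0. The log2 differences were -0.03 (95% CI -1.10 to 1.04) for *Krt18*, -0.14 (-1.008 to 0.72) for *Krt8*, -0.56 (-2.14 to 1.02) for *Krt19* and -0.98 (-2.96 to 1.007) for *Krt7*. In this comparison 0.0354% of genes passed (7 of 19768), all of them higher in GFP+ cells, and the median of all genes was 0.39. The adjusted p of the 4 ran from 0.894 to 1 (edgeR's quasi-likelihood test).

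The levels in luminal GFP- cells, as lowest, median and highest of 7 plates, were 2505, 3451 and 6503 CPM for *Krt18*, 1221, 1860 and 6140 CPM for *Krt8*, 824, 2466 and 4020 CPM for *Krt19* and 204.9, 615 and 1216 CPM for *Krt7*. Their ranges overlapped those of luminal GFP+ cells for all 4. *Krt8* divided by batch among the GFP- cells, with 1221 to 1860 CPM on the 4 plates of batches 1 and 2 and 3901 to 6140 CPM on the 3 plates of batch 3. The log2 difference between GFP+ and GFP- cells was 0.47 for *Krt8* and 0.41 for *Krt18* in batches 1 and 2 and -0.87 and -0.75 in batch 3, none passing. Its sign by plate did not divide by batch, and K5CreERT2 plate 1 had the lowest values (-1.86 for *Krt8* and -1.68 for *Krt18*), against -0.05 and 0.51 on K5CreERT2 plate 2. *Krt7* was below 0 in both (-0.57 and -0.88), as was *Krt19* (-0.31 and -0.66). The annotation names the sorted GFP- luminal cells of batches 1 and 2 ER-negative and gives no such name in batch 3, so that batch and this part of the sort cannot be told apart. *Esr1*, the estrogen receptor, did not follow that name on all plates. It was at 0 in both GFP- luminal sums of batch 2 but at 195.7 CPM at 1 week and 125.6 CPM at 6 weeks, against 27.97, 136.4 and 209.9 CPM on the plates of batch 3, and 4 of 22 cells of batches 1 and 2 and 7 of 17 of batch 3 had 10 or more reads of it.

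Per cell, as a mean of log2(CPM + 1), *Krt7* was lower in luminal GFP+ than in GFP- cells on 6 of 6 plates, by 1.17 ± 0.83 on average (SD of the difference). In the sums of the same groups 0 of the 9 tested HRpos markers, those of hormone receptor positive luminal cells, lay above 0, with a median log2 difference of -1.34 against 0.39 over all genes tested and 0 past the threshold by edgeR's quasi-likelihood test. *Esr1* had 10 or more reads in 11 of 39 luminal GFP- and 10 of 120 luminal GFP+ cells. Their part in the difference of *Krt7* was not tested. The exact two-sided sign-flip permutation test over plates gave p = 0.03125, the smallest it can give, and 0.111 after adjustment over the 16 tests of its family. The same measure was lower by 0.65 for *Krt19* (5 of 6 plates), by 0.43 for *Krt8* (4 of 6) and by 0.13 for *Krt18* (3 of 6), with exact permutation p of 0.344, 0.406 and 0.844. Between luminal and basal GFP+ cells it was higher on 5 of 5 plates for each of the 4, by 5.70 for *Krt18*, 5.55 for *Krt19*, 4.90 for *Krt7* and 4.31 for *Krt8*. With 5 plates the exact permutation test cannot give a p under 0.0625, which all 4 reached (0.111 adjusted).

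Since the depth differed between batches, each cell was thinned to 100000 reads to ask in what share of cells a keratin was detected, that is, gave at least 1 read. Intervals below are exact Clopper-Pearson 95% intervals and cover counting error only. *Krt8* was detected in 98.3% of luminal (94.1 to 99.8), 81.2% of intermediate (75.4 to 86.1) and 85% of basal GFP+ cells (76.5 to 91.4). *Krt18* was detected in 98.3%, 70.9% and 72% of them. Both were thus read in most cells of every GFP+ gate. The median cell had 145.5 *Krt8* and 353 *Krt18* reads per 100000 in the luminal, 19 and 10 in the intermediate and 18 and 7.5 in the basal gate.

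*Krt19* and *Krt7* were read in fewer cells of the basal and intermediate gates. *Krt19* was detected in 90.8% of luminal (84.2 to 95.3), 28.7% of intermediate (22.9 to 35.1) and 43% of basal GFP+ cells (33.1 to 53.3). *Krt7* was detected in 67.5% (58.3 to 75.8), 23.8% (18.3 to 29.9) and 22% (14.3 to 31.4) of them. These shares pool plates whose numbers of cells differ by gate. Within plates, *Krt19* in the intermediate and basal gates was at 38.5% and 38.1% (3-week plate 2), 63.2% and 62.5% (4 weeks) and 16.4% and 16.7% (K5CreERT2 plate 2). It was at 25.4% and 80% on K5CreERT2 plate 1 (5 basal cells) and at 25% and 36% at 1 week (4 intermediate cells). Over plates, the share was higher in luminal than in basal GFP+ cells by 57.1 percentage points for *Krt7*, 38.5 for *Krt19*, 26.6 for *Krt18* and 19.4 for *Krt8*. The first 3 were higher on 5 of 5 plates (exact two-sided sign-flip permutation test, p = 0.0625, 0.167 adjusted over 16 tests) and *Krt8* on 3 of 5 (p = 0.25 by the same exact test). Without thinning *Krt7* was read in 72.5% of luminal, 32.7% of intermediate and 29% of basal GFP+ cells, and *Krt19* in 94.2%, 44.8% and 59%.

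**Figure D3:**
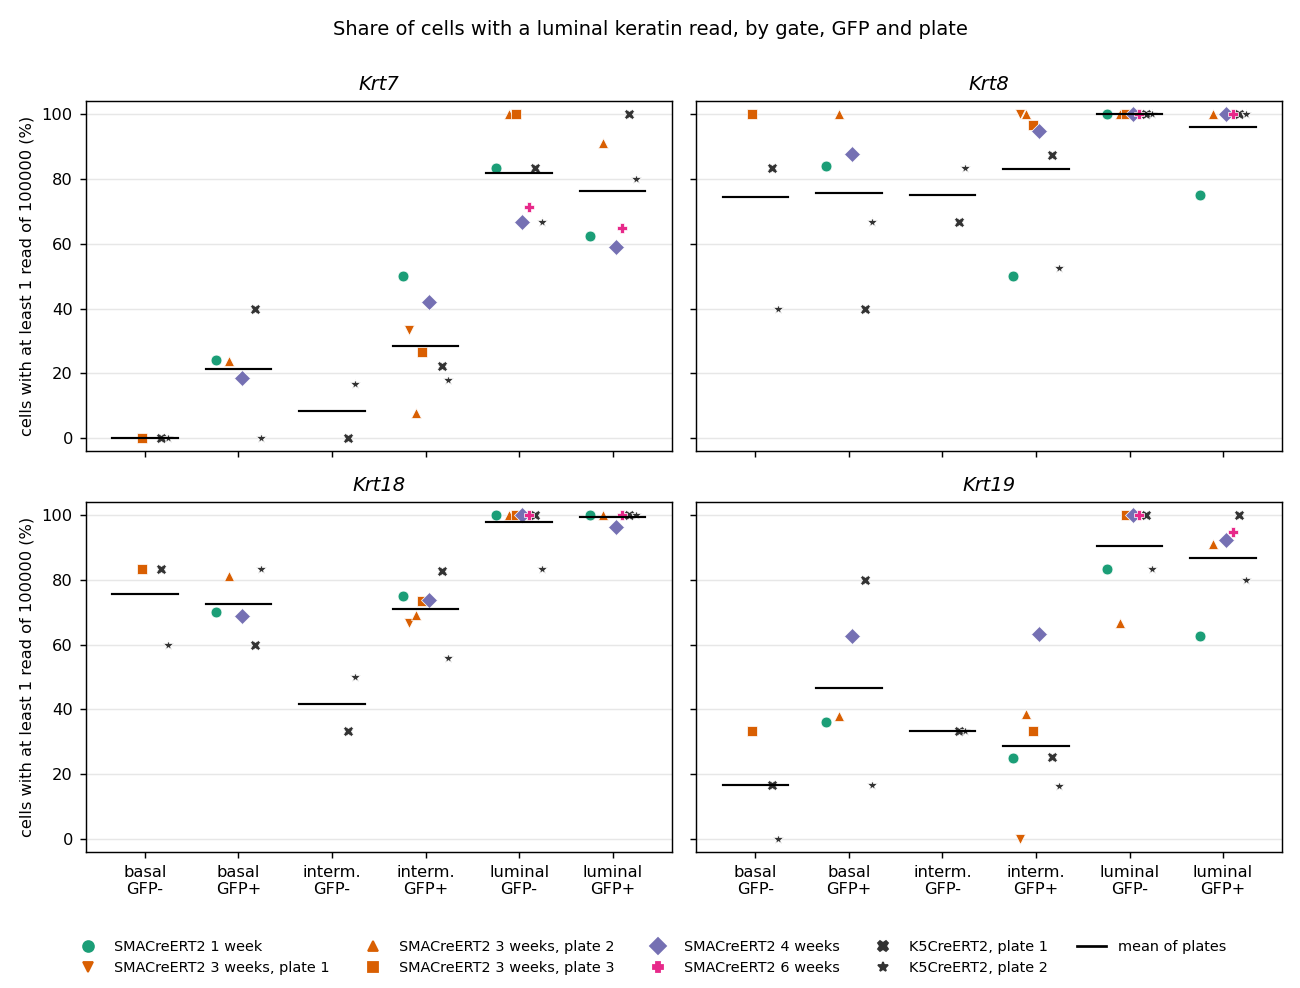
Share of cells with at least 1 read of a luminal keratin, in percent, after thinning to 100000 reads; each symbol is 1 plate and the bar the mean of plates. Krt8 and Krt18 are near 100% in most luminal sums and above 40% in all basal and intermediate GFP+ sums but 1 for Krt8 (40%), whereas Krt7 stays at or below 50% in the basal and intermediate gates.

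The GFP- cells of the basal gate had *Krt8* and *Krt18* reads in 13 of 17 cells each (76.5%, 50.1 to 93.2), *Krt19* reads in 3 (17.6%) and *Krt7* reads in 0 of 17, for which the exact interval reaches 19.5% and the limit of 3 counts is 17.6% of cells with a read at the thinned depth (counting error only, and no limit on cells that express the gene). Unthinned, 5 of the 17 cells had a *Krt7* read. On the 3 plates with such cells their levels were 58.1, 221.2 and 389 CPM for *Krt8*, 91.4, 182.97 and 220 CPM for *Krt18*, 1.06, 7.12 and 59 CPM for *Krt19* and 0, 0.317 and 0.32 CPM for *Krt7*. The *Krt18* values lay within the range of basal GFP+ cells, and the *Krt8* values reached below and slightly above theirs. The 12 GFP- cells of the intermediate gate came from the K5CreERT2 plates, and on plate 2 a single cell gave 89.1% of the *Krt8*, 99.1% of the *Krt18*, 99.8% of the *Krt19* and 100% of the *Krt7* reads. That sum had 1227, 920, 1642 and 423 CPM of the 4 genes, against 208.7, 17.4, 3.16 and 0.113 CPM on plate 1. In the same sums the 4 immune markers came to 2001 CPM on plate 2, of which *Cd74* made up 1623 CPM, against 1.13 CPM on plate 1, and the 10 HRpos markers to 1177 against 106.3 CPM. Their part in the difference between the plates was not tested.

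Cells with all 4 keratins made up 75 of 120 luminal GFP+ cells (62.5%) and 30 of 39 luminal GFP- cells (76.9%), but 27 intermediate GFP+ (12.1%) and 12 of 100 basal GFP+ cells (12%). No luminal cell lacked all 4, while 22 intermediate (9.87%) and 7 basal GFP+ cells (7%) did. The most frequent set in the intermediate gate was *Krt8* with *Krt18* and neither of the others (71 cells, 31.8%), and in the luminal gate the next after all 4 was *Krt8*, *Krt18* and *Krt19* without *Krt7* (33 cells, 27.5%). At 10 or more reads the order of the gates was the same.

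**Figure D4:**
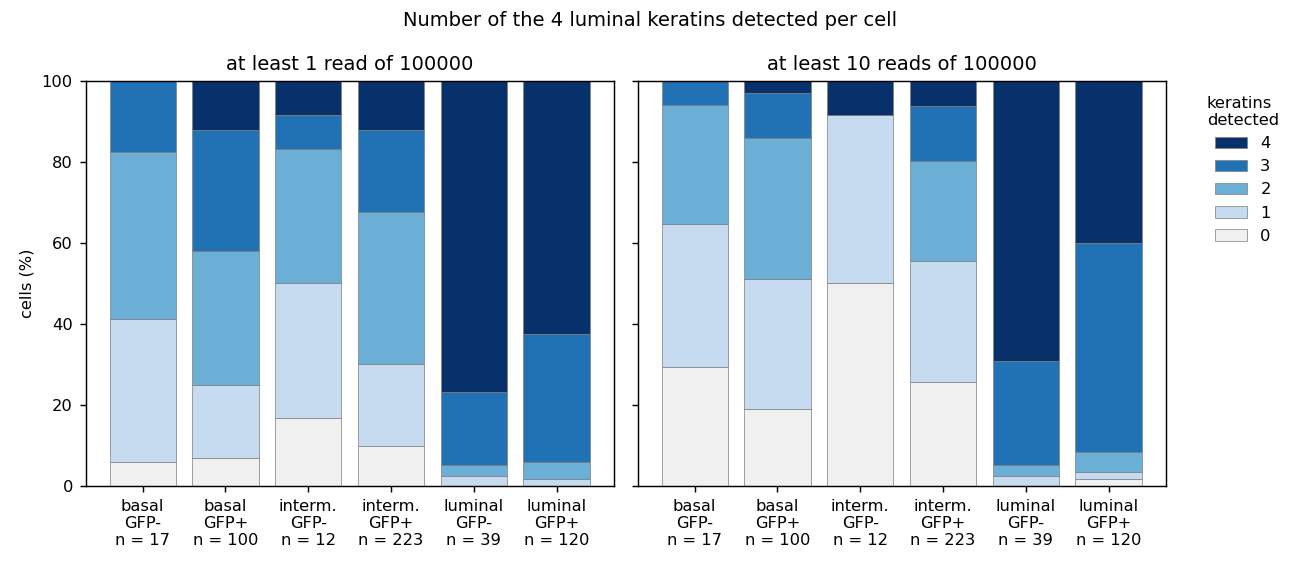
Number of the 4 luminal keratins detected per cell, as stacked shares of the cells of a group in percent, at 1 read (left) and 10 reads (right) of 100000; n is the number of cells. Cells with 3 or 4 keratins fill most of the luminal bars and less of the basal and intermediate bars.

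For pairs of genes, the transcripts of the primary pair Krt8-Krt18 were found together in 96.7% of luminal (91.7 to 99.1), 62.8% of intermediate (56.1 to 69.1) and 65% of basal GFP+ cells (54.8 to 74.3). In the intermediate gate 41 cells had *Krt8* without *Krt18* and 18 the reverse. Of the intermediate GFP+ cells with *Krt19*, 62 of 64 had *Krt8* (96.9%), and of those with *Krt7*, 50 of 53 did (94.3%). *Krt7* and *Krt19* occurred together in 30 intermediate GFP+ cells (13.5%), where the product of their separate shares gives 6.82%. The same pair was found in 13 basal (13%) and 75 luminal GFP+ cells (62.5%).

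*Krt8* was read together with the basal type I keratin *Krt14* in 76.2% of intermediate GFP+ cells and 83% of basal GFP+ cells, and also in 42 of 120 luminal GFP+ cells (35%, 26.5 to 44.2) and 10 of 39 luminal GFP- cells (25.6%, 13 to 42.1). At 10 or more reads of both genes the shares were 55.6%, 65%, 13.3% and 7.69%. The product of the separate shares for the intermediate gate is 76.4%, so that both genes were found together about as often as their single shares give. Among intermediate GFP+ cells, the 16 with fewer than 10 *Krt14* reads had a median of 853 CPM of *Krt8*, 1606 of *Krt18* and 594 of *Krt19*, against 169.8, 76.4 and 0 CPM in the others. For *Krt8* this was 343 against 205.6 CPM in batches 1 and 2 (5 and 34 cells) and 2712 against 168.4 CPM in batch 3, which held 11 of the 16 cells. In the 7 basal GFP+ cells with fewer than 10 *Krt14* reads the medians were 1.83 CPM of *Krt8*, 1.99 of *Krt18* and 0 of *Krt19* and *Krt7*. At 1 week, 45 of 50 basal GFP+ cells had 10 or more *Krt14* reads. The endothelial markers of that sum came to 394.9 CPM, against 0 to 7.72 CPM in the other basal GFP+ sums, and their part was not tested. The CPM sum of basal GFP+ cells on K5CreERT2 plate 2 held 1.12 CPM of *Krt5*, a keratin of basal cells, against a median of 860 and a highest value of 1203 CPM over the basal GFP+ sums.

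As a description, across cells of single plates the Spearman correlation of *Krt8* with *Krt18* was 0.52, 0.51 and 0.58 in intermediate GFP+ cells of the 3 plates of batch 3 (63, 61 and 60 cells) and 0.23 at 4 weeks (19 cells). In luminal GFP+ cells it was 0.75 at 4 weeks (51 cells) and 0.48 at 6 weeks (37 cells). For *Krt8* with *Krt5* the values in the intermediate gate had both signs (-0.37, 0.13, -0.47 and 0.22 in the same order). Cells of a plate share mice, preparation and run.

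The ratio of *Krt8* to *Krt18*, both per kilobase, was 0.286 to 0.419 in luminal GFP+ cells of batches 1 and 2 (4 plates) and 0.562 to 0.743 in batch 3 (2 plates). In luminal GFP- cells it was 0.243 to 0.495 (4 plates) and 0.667 to 0.846 (3 plates). In both groups the 2 sets of plates did not overlap. Within the batches, GFP+ and GFP- ranges overlapped. Batch 3 was sequenced as pairs of reads and batches 1 and 2 as single reads, all 3 K5CreERT2 and SMACreERT2 plates of batch 3 had a chase of 3 weeks, and the part of these in the ratio was not tested. In basal and intermediate GFP+ cells the ratio ran from 0.459 to 1.52 and from 0.14 to 1.17.

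**Figure D5:**
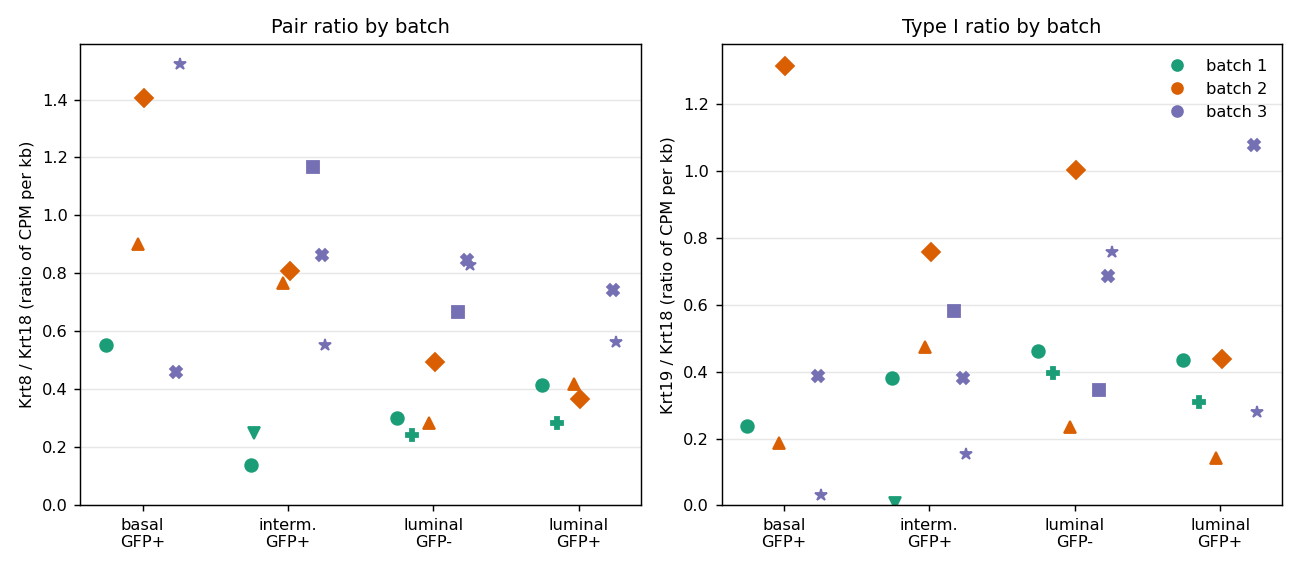
Ratio of Krt8 to Krt18 (left) and of Krt19 to Krt18 (right), each from CPM per kb, in 4 groups; each symbol is 1 plate, coloured by sequencing batch. In both luminal groups the Krt8 to Krt18 ratio of batch 3 (0.562 to 0.846) lies above that of batches 1 and 2 (0.243 to 0.495); the Krt19 to Krt18 ratio overlaps.

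Across the chase of SMACreERT2 mice, with 1 plate a time in the luminal GFP+ gate and therefore no test, *Krt8* stood at 1247, 3637, 2312 and 1717 CPM after 1, 3, 4 and 6 weeks. *Krt18* stood at 2210, 6370, 4632 and 4411 CPM, *Krt19* at 1056, 984, 2231 and 1504 CPM and *Krt7* at 387, 431, 284.5 and 142.7 CPM. In these sums *Krt8*, *Krt18* and *Krt7* were lower at each later time from 3 weeks on, and *Krt19* was not. Per cell, the mean log2(CPM + 1) went from 10.73 at 4 weeks to 10.25 at 6 weeks for *Krt8*. It went from 11.43 to 11.79 for *Krt18* and from 4.44 to 4.59 for *Krt7*. The plates of 1 and 6 weeks were of batch 1 and those of 3 and 4 weeks of batch 2, so that time is mixed with batch. The GFP- luminal cells of the same plates had 1221, 1228, 1689 and 1860 CPM of *Krt8*, and 615, 435, 204.9 and 531 CPM of *Krt7*. The 1-week luminal GFP+ sum held only 8 cells, of which 6 (75%) had a *Krt8* read and 8 a *Krt18* read.

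In that 1-week sum the salivary markers reached 28785 CPM over 7 genes, of which *Bpifa2* gave 26188 CPM and 3 were at 0, although cells with more than 1 *Dcpp1* read had been left out. Over the other luminal GFP+ sums they reached 54 to 599 CPM. Salivary glands express luminal keratins too, and the part of such cells in the 1-week values was not tested. The fold changes of *Krt8* and *Krt18* against basal cells passed with this plate left out, as they did with each of the other plates left out (adjusted p from 7.18e-05 to 0.0353 for *Krt18* and from 0.0014 to 0.0248 for *Krt8*, edgeR's quasi-likelihood test).

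Between Cre lines, the intermediate GFP+ cells at 3 weeks in batch 3 can be set side by side, with 1 SMACreERT2 plate of 60 cells and 2 K5CreERT2 plates of 63 and 61. *Krt8* was at 629 CPM in the first and at 492.8 and 318 CPM in the others. *Krt18* was at 395 against 419 and 422 CPM, *Krt19* at 252.5 against 174.9 and 70.7 CPM, and *Krt7* at 95.6 against 56.2 and 31.2 CPM. In these sums *Krt18* differed least. The share of cells with a *Krt18* read was 73.3% against 82.5% and 55.7%, and on K5CreERT2 plate 2 a single cell gave 32.2% of its reads. On K5CreERT2 plate 2 the sebaceous and lipid markers summed to 4565 CPM in intermediate and to 7477 CPM in basal GFP+ cells, led by *Scd1*. On plate 1 they summed to 767 and 2394 CPM, and their part in the keratin values was not tested.

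In the luminal gate the keratins were also set beside a marker of hormone receptor expression and one of its absence, as a description over cells. Among luminal GFP- cells the 11 with 10 or more reads of *Esr1* had a median of 1328 CPM of *Krt7*, and the 28 others had 225.5 CPM. This was 1308 against 141.1 CPM in batches 1 and 2 (4 and 18 cells) and 1328 against 774 CPM in batch 3 (7 and 10 cells). Among luminal GFP+ cells the median was 582 CPM in the 10 cells with *Esr1* and 63.7 CPM in the 110 others. The other 3 were higher in the cells with *Esr1* as well. Medians of *Krt19* were 2972 against 1412 CPM in GFP- and 2501 against 1329 CPM in GFP+ cells, and those of *Krt8* 3415 against 2103 CPM and 1981 against 1374 CPM. Within batches the *Krt8* medians of GFP- cells were 1277 against 1119 CPM (batches 1 and 2) and 6004 against 4604 CPM (batch 3). *Krt18* had medians of 4145 against 3385 CPM in GFP- and 3878 against 3547 CPM in GFP+ cells. *Kit*, the receptor that marks HRneg luminal progenitors, had 10 or more reads in 100 of 120 luminal GFP+ and 22 of 39 luminal GFP- cells. In the GFP- cells with *Kit* the *Krt7* median was 141.1 CPM, against 1104 CPM in those without. In the GFP+ cells it was 71.9 CPM with *Kit* and 148.5 CPM without, and in batches 1 and 2 alone it ran the other way, with 67.5 CPM in 92 cells and 41.5 CPM in 17.

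Among the 18 other keratins listed for comparison, 15 were tested and 0 passed in any of the 4 comparisons. Of all genes tested, 0.759% passed between luminal and basal and 0.157% between luminal and intermediate GFP+ cells. The shares were 0% between intermediate and basal GFP+ cells and 0.0354% between luminal GFP+ and GFP- cells. At such shares, 0 or 1 call in this list or those below is not read as a result about the list. Between luminal and basal GFP+ cells the basal pair *Krt14* and *Krt5* had log2 differences of -4.49 ± 1.22 and -5.74 ± 1.93, and *Krt17*, a type I keratin of basal and appendage cells, one of -2.97 ± 1.47 (SE, adjusted p = 0.0913, 0.203 and 0.474, edgeR's quasi-likelihood test). Of 17 tested genes of desmosomes and filament linkers, which anchor keratins to the membrane, *Dst* alone passed. It encodes the linker of hemidesmosomes, and it fell by 2.00 ± 0.36 against basal and by 2.08 ± 0.35 against intermediate GFP+ cells on the log2 scale (± SE, with an adjusted p of 0.00753 and 0.0134 by the same test). Of 7 other intermediate filament genes 0 passed, with *Lmna* at 0.02 and *Vim*, the filament of mesenchymal cells, at -3.15 on the log2 scale. Of 16 luminal transcription factors, with *Cebpb*, *Klf5* and *Klf4* as the most abundant at -0.81, 0.00 and -0.62, 0 passed.

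Of 10 luminal membrane genes *Epcam*, which the sort used, and the tight junction gene *Cldn3* rose, by 1.95 ± 0.23 and 6.24 ± 0.98 on the log2 scale against basal GFP+ cells (SE, adjusted p = 0.000134 and 0.00225 by edgeR's quasi-likelihood test). Against intermediate cells *Epcam* rose by 1.17 ± 0.21 (adjusted p = 0.0184). Against basal GFP+ cells 0.425% of all genes tested were called lower and 0.334% higher. Of the 10 basal markers 5 fell, among them *Acta2* by 5.60 and *Sparc* by 7.41, and of the 10 HRneg markers 4 rose, *Kit* by 8.96, *Aldh1a3* by 10.8, *Ltf* by 11.1 and *Wfdc18* by 7.39. Of 9 tested HRpos markers *Cited1* rose by 9.28. The median log2 difference was -5.90 over the basal, 6.89 over the HRneg and 3.78 over the 4 luminal keratins, against -0.03 over all genes tested. Fibroblast, endothelial, immune and sebaceous lists had 0 members past the threshold. Of 4 tested salivary markers *Aqp5*, a water channel also found in luminal cells, passed and rose by 11.7. All 4 lay above 0, with a median log2 difference of 9.01, and the median of the 9 HRpos markers was 4.06. The part of salivary cells in the keratin values was not tested.

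Over the 30 sums of cells, the log2(CPM + 1) of the 4 keratins had Pearson correlations with each other of 0.79 to 0.88, the highest between *Krt8* and *Krt18*. The sums share plates, batches and depth, and most of the range is that between the gates. Of 9144 other genes with a mean of at least 10 CPM, those most like the 4 by mean correlation were *Mboat1* (0.88), *Cldn7* (0.87), *Cldn3* (0.86), *Basp1* (0.83), *Rhpn2* (0.82), *Aqp5* (0.81), *Rhov* (0.81), *Aldoc* (0.81), *Cystm1* (0.81) and *Coro2a* (0.80).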

How the data were processed

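The deposited tables hold raw read counts of 840 single-cell libraries from 744 cells. The authors trimmed the reads, aligned them to GRCm38 with STAR 2.7.7a and counted them with HTSeq 0.13.5, whose unassigned entries (39.7% of reads without a feature, 1.84% ambiguous) were set apart. A repeat run of 96 cells, the only cells present in more than 1 run, was left out. Cells needed more than 1400 detected genes and 100000 reads, a mitochondrial share below 10%, 2 or more reads of *Epcam* and no more than 1 of *Dcpp1*. Cells were sorted singly, and no doublet caller was run.

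Counts were summed per gate and GFP group on each plate with at least 3 kept cells (30 sums). edgeR 4.0.16 (R 4.3.3) fitted 29 of them from 7 plates, since 1 plate held a single group, with TMM, filterByExpr, plate as block and Benjamini-Hochberg adjustment over 19768 genes. A gene passed with an adjusted p under 0.05. Shares and mean log2(CPM + 1) were compared by exact two-sided sign-flip permutation tests over plates. Transcript lengths are those of the longest principal transcript in GENCODE. Tested on simulated counts with the fitted dispersion for luminal against basal GFP+ cells (19768 genes), edgeR recovered 0%, 2.99% and 24.2% of changes of 1, 2 and 3 on the log2 scale with 0 false calls, so that a difference that missed the threshold is not shown to be absent.

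The genes named are the 4 luminal keratins, of each list the members that passed in a comparison (otherwise the 3 with the highest mean CPM), and the 10 genes most like the 4. The members and lists were chosen with earlier results of these data known. Alternatives were DESeq2 1.42.0, no low-count filter, no plate block, other units, cell filters, batches, thresholds, the exchange of labels and each plate left out.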

Additional observations from a re-analysis of the deposited data

Results flagged for a closer look

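Of 31 groups of plates checked for a value far from the others, 5 were found. The count of 1.55 expected by chance does not hold for 3 of them. These are shares that were 100% on all other plates, where any lower plate is found, so that no excess over chance can be read. In intermediate GFP+ cells the 1-week plate had 995 CPM of *Krt18* with the next plate at 529 CPM. That sum held 4 cells, of which 1 gave 82.2% of the *Krt18* reads, and its endothelial and HRpos markers summed to 818 and 3368 CPM. In luminal GFP+ cells K5CreERT2 plate 2 had 928 CPM of *Krt7* with the next plate at 431 CPM, and 1 of its 5 cells gave 65.2% of the reads. The other 3 concern shares of cells that were 100% on all other plates. *Krt18* was detected in 83.3% of luminal GFP- cells on K5CreERT2 plate 2 and in 96.1% of luminal GFP+ cells at 4 weeks, and *Krt8* in 75% of luminal GFP+ cells at 1 week. In the first of these sums, of 6 cells, the 10 basal markers came to 2155 CPM, against 17.99 to 294.4 CPM on the other luminal GFP- plates. A single cell gave 99.98% of its 441.7 CPM of *Krt5*, and a single cell 99.9% of its 803 CPM of *Krt14*. Of the 2 luminal GFP- cells of batch 3 with 10 or more *Krt14* reads, 1 had fewer than 10 *Krt18* reads. The part of the few cells and of the other markers in these values was not tested.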

How the results depend on the processing

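The rise of *Krt8* and *Krt18* in luminal over basal GFP+ cells kept its direction and its call under DESeq2, without the low-count filter, without the plate block, with other units or cell filters and with each plate left out (3.77 to 4.38 for *Krt18*, 2.80 to 3.45 for *Krt8*). The calls were lost in batch 3 alone (4.17 and 4.07 for *Krt18* and *Krt8*), which has fewer plates, and when intermediate and luminal GFP+ cells were exchanged on 4 plates (2.83 and 2.08). *Krt19* in the same comparison gained a call without the low-count filter (4.17), with no replicate block (4.03), with a Cre line at a chase as the unit (4.08), with cells thinned before summing (3.89), with only cells over 100 *Dcpp1* reads removed (4.61), with neither the *Epcam* nor the *Dcpp1* filter (4.46), in batches 1 and 2 (3.45), with DESeq2 (4.18) and without either K5CreERT2 plate (3.65 to 4.47 over all plates left out). *Krt7* gained one without the low-count filter (3.42) and with DESeq2 (3.50).

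For luminal against intermediate GFP+ cells, *Krt18* lost its call with only the 2 groups in the fit (2.82), in batches 1 and 2 (2.84) and in batch 3 (2.88), and *Krt8* with the 2 groups (2.66) and in batch 3 (2.66). The exchange of labels turned *Krt18* to -0.43 and *Krt8* to -0.29. Leaving out 1 plate gave 2.703 to 3.36 for *Krt18*, 2.60 to 2.99 for *Krt8* and 2.42 to 3.23 for *Krt19*. *Krt19* gained a call with 1 of the 7 plates left out, where its adjusted p was 0.0258 by edgeR's quasi-likelihood test. Without the low-count filter *Krt19* (2.85) and *Krt7* (2.38) gained calls, as did *Krt19* with DESeq2 (2.76). For intermediate against basal GFP+ cells *Krt19* (1.32) and *Krt18* (1.10) gained a call without the low-count filter, and *Krt8* turned to -0.011 in batches 1 and 2. For luminal GFP+ against GFP- cells *Krt18* and *Krt8* turned to 0.41 and 0.47 in batches 1 and 2, and ranged from -0.30 to 0.34 and from -0.36 to 0.32 with 1 plate left out, above 0 without K5CreERT2 plate 1 for both.

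The share of genes past the threshold depended on the setting. For luminal against basal GFP+ cells (0.759% of genes tested) it was 1.87% without the low-count filter, 3% with thinned cells, 1.71% with only cells over 100 *Dcpp1* reads removed, 1.44% with neither filter, 0.153% in batches 1 and 2, 0.0778% in batch 3, 0% with labels exchanged, 8.73% with DESeq2 (1726 genes) and 0.198% (without 3-week plate 2) to 0.635% with 1 plate left out. For intermediate against basal GFP+ cells (0%) it was 0.196% without the low-count filter and 2.14% with DESeq2. For luminal against intermediate GFP+ cells (0.157%) it was 1.15% without the low-count filter, 0.293% with no replicate block, 0% with the 2 groups only and with labels exchanged, 0.388% with at least 5 cells per sum, 1.13% with thinned cells, 0.551% with only cells over 100 *Dcpp1* reads removed, 0.371% with neither filter, 0.0418% in batches 1 and 2, 0.0445% in batch 3, 5.96% with DESeq2 (1179 genes) and 0.0507% (without 3-week plate 2) to 0.183% with 1 plate left out. For luminal GFP+ against GFP- cells (0.0354%) it was 0.484% without the low-count filter, 0% with the 2 groups, with thinned cells and in either set of batches, 0.0101% with the repeat run of the 6-week plate, 6.16% with DESeq2 (1217 genes) and 0% to 0.0508% with 1 plate left out. The plate block changed no call of the 4 keratins other than that of *Krt19* named above, and the cause of these changes was not tested.

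Differences in shares of cells are given by sign, since the exact permutation test cannot give a p under 0.0625 with 5 plates or under 0.03125 with 6. This smallest p, unadjusted, was reached by 7 differences with neither filter and by luminal GFP+ against GFP- *Krt7* at 10 reads. Those that changed sign, in percentage points, were intermediate against basal *Krt8* at 10 reads (-4.15), *Krt18* at 10 reads (6.88), with neither filter (4.97) and with labels exchanged (14.3) and *Krt19* with labels exchanged (10.8); luminal against intermediate *Krt18* with labels exchanged (-3.29); and luminal GFP+ against GFP- *Krt18* without thinning (-0.65) and with labels exchanged (-10.9) and *Krt19* with neither filter (1.19). With 1 plate left out, intermediate against basal ran from -10.2 to 10.1 for *Krt8* and from -7.35 to 5.19 for *Krt18*, and luminal GFP+ against GFP- from -6.20 to 1.30 for *Krt7*, from -0.78 to 3.33 for *Krt18* and from -7.48 to 1.53 for *Krt19*. In mean log2(CPM + 1), intermediate against basal *Krt19* turned to 0.10 with neither filter and 2.47 with labels exchanged, and luminal against intermediate *Krt18* to -0.69 with labels exchanged. With 1 plate left out, intermediate against basal ran from -0.55 to 0.91 for *Krt8* and from -0.62 to 0.35 for *Krt19*, and luminal GFP+ against GFP- from -0.54 to 0.15 for *Krt18*. At 10 reads the share of cells with both genes was 40% luminal, 8.97% intermediate and 4% basal GFP+ for *Krt7* with *Krt19*, 38.6% intermediate and 35% basal GFP+ for *Krt8* with *Krt18*, and 13.3% luminal GFP+, 7.69% luminal GFP-, 55.6% intermediate GFP+ and 65% basal GFP+ for *Krt8* with *Krt14*. The number of cells per sum, from 3 upwards, limits the precision of every level.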
